A study of Mus musculus with 8 samples.

Results

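The 10 genes described here are markers of Kupffer cells, the resident macrophages of the liver, read in RNA-seq counts of whole liver: *Adgre1*, *Clec4f*, *Vsig4*, *Cd5l*, *Marco*, *Timd4*, *C1qa*, *C1qb*, *C1qc* and *Csf1r*. They were taken by symbol from the 46078 gene identifiers of the count table, 13856 of which had enough counts to be tested, and all 10 were among these. The study removed the splicing factor RBFOX2 from mouse liver. The 4 L ΔRbfox2 mice carried Alb_cre+ Rbfox2 LoxP/LoxP and the 4 L WT mice Alb_cre- Rbfox2 LoxP/LoxP, so that both genotypes had floxed *Rbfox2* alleles and differed in the Cre transgene as well as in the deletion, and these cannot be told apart. Mice of both groups received chow, named a control diet (CD) in the titles, for 12 weeks according to the labels, while the methods give a longer feeding period and a start at 8 weeks of age. The methods state that mice were male unless noted otherwise. All livers were collected after a 16 h fast, and each library was made from 1 liver. The albumin promoter drives Cre in hepatocytes, so the cells known to express these 10 genes are not the cells in which the deletion was designed to occur.

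Kupffer cells line the liver sinusoids, where they clear particles, bacteria, old erythrocytes and dying cells from portal blood. Their survival depends on signalling through the receptor encoded by *Csf1r*, and their identity is maintained by signals from endothelial, stellate and parenchymal neighbours. CLEC4F is a lectin that marks these cells in mice, VSIG4 is a receptor for complement fragments, MARCO is a scavenger receptor for bacteria and particles, and TIMD4 binds phosphatidylserine on dying cells. CD5L is secreted by tissue macrophages, *Adgre1* encodes the macrophage antigen F4/80, and the C1QA, C1QB and C1QC chains assemble into C1q, which starts the classical complement pathway.

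*C1qa*, *C1qb* and *C1qc* lie side by side on chromosome 4 (GRCm38, all on the minus strand), in a stretch of 18675 bp from 136880129 to 136898803, with 3616 bp between *C1qb* and *C1qc* and 2851 bp between *C1qc* and *C1qa*. The other members are on separate chromosomes, which are 17 for *Adgre1*, 6 for *Clec4f*, X for *Vsig4*, 3 for *Cd5l*, 1 for *Marco*, 11 for *Timd4* and 18 for *Csf1r*. RefSeq promoter windows of GRCm38.p6, which run from 250 bases before to 50 bases after a start site, were matched for 7 members, namely *Clec4f*, *Vsig4*, *Cd5l*, *Marco*, *Timd4*, *C1qb* and *C1qc*. The windows of *C1qb* and *C1qc* are shown because these genes varied together across livers, and those of *Clec4f* and *Marco* because these genes stood at opposite ends in 1 of the livers. Each is printed 5′ to 3′ on the gene's own strand (minus for all 4) and stops before the first transcribed base of RefSeq or GENCODE, which leaves 250 bases for *C1qb* (chr4:136886201-136886450), 99 for *C1qc* (chr4:136893066-136893164), 179 for *Clec4f* (chr6:83656188-83656366) and 250 for *Marco* (chr1:120505025-120505274). Capitals mark the letters GAGGAA, the core of the site bound by the macrophage factor PU.1, or their reverse complement TTCCTC.
C1qb: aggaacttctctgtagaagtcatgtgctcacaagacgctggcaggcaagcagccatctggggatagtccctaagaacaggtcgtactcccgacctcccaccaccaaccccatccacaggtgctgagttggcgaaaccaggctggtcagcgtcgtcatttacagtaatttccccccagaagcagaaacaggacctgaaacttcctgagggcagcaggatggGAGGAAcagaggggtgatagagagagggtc
C1qc: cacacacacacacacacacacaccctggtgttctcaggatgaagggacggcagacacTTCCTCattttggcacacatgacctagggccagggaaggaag
Clec4f: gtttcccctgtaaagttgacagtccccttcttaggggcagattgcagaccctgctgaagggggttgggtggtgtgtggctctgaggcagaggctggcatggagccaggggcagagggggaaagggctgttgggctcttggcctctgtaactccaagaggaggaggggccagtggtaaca
Marco: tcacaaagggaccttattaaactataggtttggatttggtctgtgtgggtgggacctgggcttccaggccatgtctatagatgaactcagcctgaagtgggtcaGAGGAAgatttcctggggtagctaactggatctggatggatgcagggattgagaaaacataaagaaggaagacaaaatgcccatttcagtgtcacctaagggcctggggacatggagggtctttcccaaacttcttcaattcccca
The core was searched on both strands after the sequences had been seen, and it occurs in the full windows of 5 of the 7 members (*Marco*, *Cd5l*, *C1qb*, *C1qc* and *Vsig4*), against 28.28% of 32851 RefSeq windows of this length. Of the longer motifs searched on both strands, GAGGAAGT, which contains the core, was found in 1 of the 7 windows (*C1qc*) and in 3.20% of all windows. The MAF motif TGCTGAC was found in 1 of 7 (*Timd4*) and in 4.67% of all windows, and the E-box CACGTG in 0 of 7 and in 7.15%. These matches describe letters in the windows and no binding was measured.

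The libraries held 37482458 to 56177588 counts each, the members had 48 to 1780 counts per liver, and the 10 genes together made up 0.0062% to 0.019% of a library. *Rbfox2*, the targeted gene, had a mean of 14.3 ± 3.96 in L WT livers and of 4.03 ± 1.68 in L ΔRbfox2 livers (SD, n = 4 each), with no overlap, in CPM, which are TMM-normalized counts scaled to a common library size. TMM factors were 0.724 and 0.776 in L ΔRbfox2 replicates 3 and 4 and 1.02 to 1.14 in the other 6 livers, so replicates 3 and 4 differed from the rest in composition. The livers that stood apart for the members were L WT replicate 3 and L ΔRbfox2 replicates 2 and 4. L WT replicate 3 was the highest of the 8 livers for 8 members, L ΔRbfox2 replicate 2 was the lowest for 8 members, and L ΔRbfox2 replicate 4 was the highest for *Adgre1* and *Marco* and the lowest for *Clec4f* and *Csf1r*.

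All 10 genes were detected in every liver, with at least 48 counts. Per kb of exon, the highest levels in L WT livers were those of *Cd5l* (12.0 ± 3.53 CPM per kb; SD, n = 4), *C1qb* (11.75 ± 3.93), *C1qa* (11.7 ± 4.22) and *Clec4f* (11.2 ± 2.56), and these neighbours differed by less than their SD. *C1qc* at 5.85 ± 1.87 and *Vsig4* at 4.94 ± 1.92 CPM per kb followed. *Clec4f* was above *C1qc* and *Vsig4* was above *Csf1r* in 8 of 8 livers, whereas the difference between *C1qc* and *Vsig4* was within the SD. *Csf1r* (2.02 ± 0.613) and *Marco* (1.91 ± 0.720) could not be ordered, with *Csf1r* above *Marco* in 3 of 8 livers. *Marco* was above *Adgre1* (1.27 ± 0.319) in 8 of 8 livers, and *Timd4* was the lowest member at 0.817 ± 0.319 CPM per kb.

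No member passed the test for a difference between genotypes. In the fit to all livers 8 of the 10 genes had a negative log2 fold change in L ΔRbfox2 livers (*Marco* and *Timd4* did not), against 51.6% of all genes tested, and the median over the members was −0.35 on the log2 scale, against −0.015 for all genes. *Csf1r* was at 52.0% and *Clec4f* at 60.4% of the L WT mean, and *Marco* had the highest estimate in the opposite direction. With edgeR's quasi-likelihood test, 0 of 10 members and 0 of 13856 genes (0%) reached a Benjamini–Hochberg adjusted *P* of at most 0.05, and adjusted *P* values of the members ran from 0.504 to 0.939. The targeted gene *Rbfox2* did not pass this test either (log2 fold change −1.82, unadjusted *P* = 0.000221, adjusted *P* = 0.504). A gene that did not pass is therefore not shown to be unchanged. At an unadjusted *P* under 0.05, 2 members were lower (*Csf1r* and *Clec4f*; background 1.83% of genes) and 0 were higher (background 7.95%). DESeq2 and limma-voom also gave 0 members at the adjusted threshold and 2 at the unadjusted threshold. In whole liver, fewer Kupffer cells and less RNA per Kupffer cell cannot be told apart.

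The median of the members moved with single livers, with a correction for GC content and gene length, and with 1 surrogate variable. Without L WT replicate 3 it was −0.072 with 5 of 10 members negative, and without L ΔRbfox2 replicate 2 it was −0.17 with 7 of 10. When GC content and gene length were corrected in every library it was −0.63, and 5 of the 10 members were lower at an unadjusted edgeR *P* under 0.05 (background 2.66% of genes): *Clec4f*, *Csf1r*, *C1qb*, *Cd5l* and *Vsig4*. When the replicate block, which pairs livers by replicate number, was added there were 7, with *C1qa* and *C1qc* (background 1.47%). Livers of the same number did not deviate together, so the data gave no ground for this block. When 1 surrogate variable was fitted in place of both the correction and the block there were 6, the same 7 without *Vsig4*, with a median of −0.65 (background 1.63%). Because the members varied together from liver to liver, these counts are not counts of independent genes. The background share of single genes is therefore no measure of how unusual they are. No member passed the adjusted threshold in any of these fits. Upper-quartile scaling changed the split of all genes at the unadjusted threshold from 1102 higher and 254 lower to 829 higher and 338 lower, and the member count stayed at 2.

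**Figure D1:**
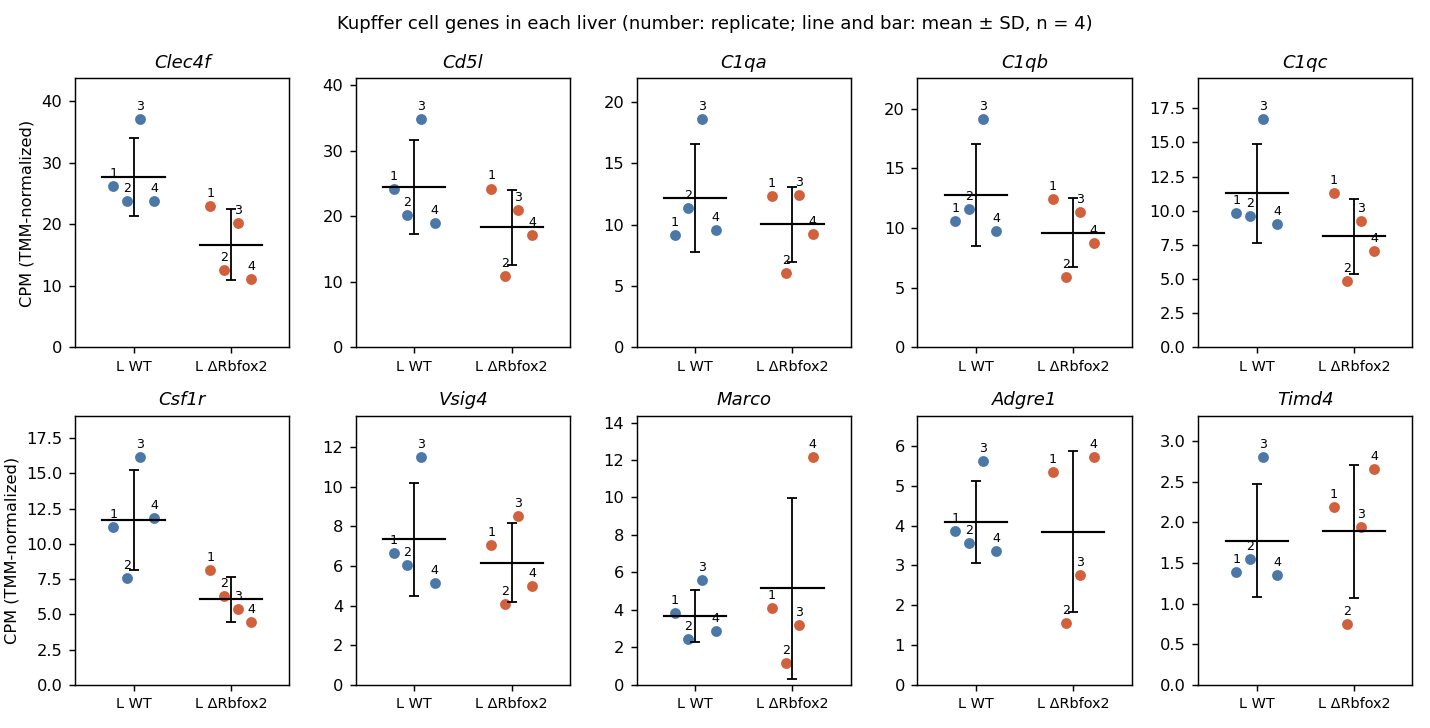
Level of each Kupffer cell gene in each liver, in TMM-normalized CPM on a linear axis from 0, with points numbered by replicate, a line at the mean and a bar of ± 1 SD for 4 L WT (blue) and 4 L ΔRbfox2 (orange) livers. L WT replicate 3 is the highest liver for 8 members, L ΔRbfox2 replicate 2 the lowest for 8, and *Marco* in L ΔRbfox2 replicate 4 stands at 12.2 CPM, above the 1.14 to 4.11 CPM of the other 3 livers of its genotype.

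*Clec4f*, whose lectin product is found on Kupffer cells, was the only member with no overlap between genotypes. It was at 26.2, 23.8, 37.02 and 23.8 CPM in L WT replicates 1 to 4 and at 23.0, 12.6, 20.2 and 11.05 CPM in L ΔRbfox2 replicates 1 to 4. Every L ΔRbfox2 liver was under every L WT liver, by a narrow margin between L ΔRbfox2 replicate 1 and L WT replicate 2, and 1.23% of all genes tested showed such a separation towards lower values. No member was separated towards higher values (background 1.05%). The means were 27.7 ± 6.33 and 16.7 ± 5.79 CPM (SD, n = 4 each). The log2 fold change was −0.73, with an unadjusted *P* of 0.0207 and an adjusted *P* of 0.504 in edgeR's quasi-likelihood test (0.201 to 0.956 over the alternatives). The limma-voom estimate was −0.77 with a standard error of 0.26 and a 95% interval from −1.36 to −0.18. The unadjusted *P* from edgeR was 0.075 without L WT replicate 3, 0.057 without L ΔRbfox2 replicate 4 and 0.05001 without L ΔRbfox2 replicate 2, and it was under 0.05 in 17 of 20 fits.

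*Csf1r*, the receptor for the macrophage growth factors CSF1 and IL-34, had the lowest fold change. Its values were 11.2, 7.55, 16.2 and 11.8 CPM in L WT replicates 1 to 4 and 8.18, 6.28, 5.38 and 4.46 CPM in L ΔRbfox2 replicates 1 to 4. The groups overlapped at 1 place, where L ΔRbfox2 replicate 1 exceeded L WT replicate 2. The means were 11.7 ± 3.54 and 6.07 ± 1.59 CPM (SD, n = 4 each), with a log2 fold change of −0.94, an unadjusted *P* of 0.00532 and an adjusted *P* of 0.504 in the edgeR test (0.114 to 0.956 over the alternatives). The limma-voom interval ran from −1.51 to −0.31. The unadjusted edgeR, DESeq2 or limma-voom *P* was under 0.05 in 20 of 20 fits, including those that left out a liver. *Csf1r* shares exonic sequence with *Hmgxb3* on the opposite strand. How the counting treated strand is not given in the sources used here, so reads of the overlap are uncertain. *Hmgxb3* was at 7.51 ± 0.868 CPM in L WT and 5.70 ± 1.70 CPM in L ΔRbfox2 livers (SD, n = 4 each; log2 fold change −0.39, unadjusted *P* = 0.123 in the edgeR test), and its part in the *Csf1r* difference was not tested.

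The C1q chains and *Cd5l*, all secreted products, had lower means in L ΔRbfox2 livers with broad overlap. *C1qc* was at 9.82, 9.64, 16.7 and 9.003 CPM in L WT replicates 1 to 4 and at 11.3, 4.87, 9.22 and 7.09 CPM in L ΔRbfox2 replicates 1 to 4. *C1qb* was at 10.6, 11.6, 19.1 and 9.79 CPM in L WT and at 12.45, 5.92, 11.4 and 8.76 CPM in L ΔRbfox2 livers, in the same order. For both genes L WT replicate 3 was the highest and L ΔRbfox2 replicate 1 the next highest liver. *C1qa* was at 9.14, 11.4, 18.6 and 9.53 CPM in L WT and at 12.4, 6.04, 12.45 and 9.23 CPM in L ΔRbfox2 livers. *Cd5l* was at 24.2, 20.2, 34.8 and 19.0 CPM in L WT and at 24.2, 10.95, 21.03 and 17.15 CPM in L ΔRbfox2 livers. The log2 fold changes were −0.48 for *C1qc*, −0.42 for *Cd5l*, −0.41 for *C1qb* and −0.28 for *C1qa*, and every limma-voom interval included 0 (for *C1qc* from −1.18 to 0.15). With the GC content and gene length correction the log2 fold changes were −0.69 for *C1qb*, −0.65 for *Cd5l*, −0.60 for *C1qc* and −0.54 for *C1qa*, with unadjusted *P* values of 0.0192, 0.0273, 0.0520 and 0.0643 and an adjusted *P* of 0.633 for each in the edgeR test. L WT replicate 3 carried much of these differences: without it the L WT mean of *C1qc* was 9.49 ± 0.431 CPM (SD, n = 3) in place of 11.3 ± 3.61 CPM (SD, n = 4), and the log2 fold change of *C1qa* was 0.0021.

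The surface receptors *Vsig4*, *Adgre1* and *Timd4* differed less between genotypes than among livers of a genotype. *Vsig4* was at 6.64, 6.05, 11.5 and 5.16 CPM in L WT replicates 1 to 4 and at 7.06, 4.09, 8.49 and 4.98 CPM in L ΔRbfox2 replicates 1 to 4. *Adgre1* was at 3.87, 3.56, 5.62 and 3.36 CPM in L WT and at 5.35, 1.55, 2.76 and 5.73 CPM in L ΔRbfox2 livers. The L ΔRbfox2 values of *Adgre1* lay on both sides of all L WT values. *Timd4* was at 1.38, 1.55, 2.81 and 1.36 CPM in L WT and at 2.19, 0.749, 1.95 and 2.66 CPM in L ΔRbfox2 livers. Log2 fold changes were −0.26 for *Vsig4*, −0.098 for *Adgre1* and 0.077 for *Timd4*, with limma-voom intervals from −0.95 to 0.42, −1.21 to 0.60 and −0.998 to 0.88. These intervals do not show that the genotypes are alike for these genes.

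*Marco* had the widest spread of the members. It was at 3.81, 2.45, 5.57 and 2.88 CPM in L WT replicates 1 to 4 and at 4.11, 1.14, 3.20 and 12.2 CPM in L ΔRbfox2 replicates 1 to 4. The highest and lowest L ΔRbfox2 livers differed 10.7-fold, and replicate 4 was 2.96-fold above the next L ΔRbfox2 liver. The log2 fold change was 0.48 (unadjusted *P* = 0.437 in the edgeR test), with a limma-voom estimate of −0.028 and an interval from −1.38 to 1.33. Without L ΔRbfox2 replicate 4 the edgeR estimate was −0.39, and the L ΔRbfox2 mean changed from 5.155 ± 4.84 CPM (SD, n = 4) to 2.82 ± 1.52 CPM (SD, n = 3). The direction for *Marco* thus changed without this liver, and with all livers kept it also changed under limma-voom, 1 surrogate variable (−0.58) and the replicate block with the GC content and gene length correction (−0.12).

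**Figure D2:**
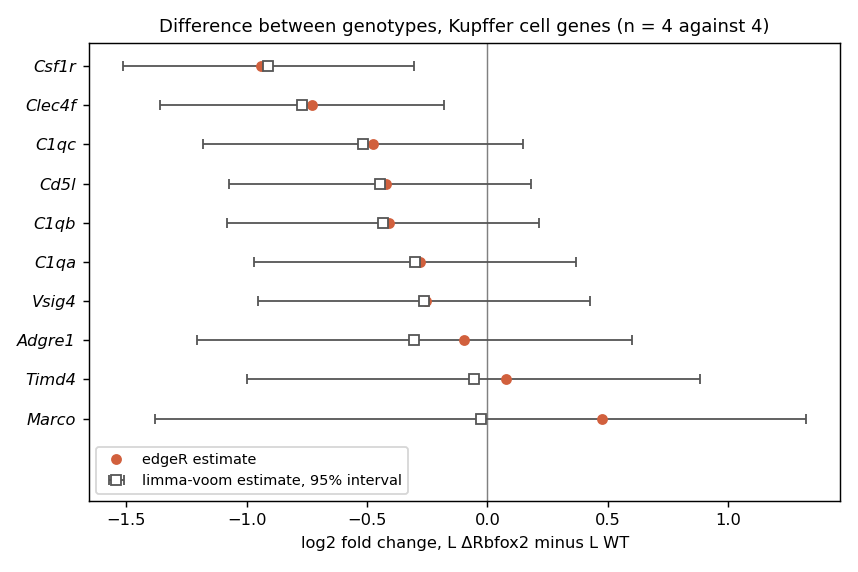
Log2 fold change of L ΔRbfox2 against L WT livers for each Kupffer cell gene, with edgeR estimates as filled circles and limma-voom estimates as open squares with 95% intervals (n = 4 against 4). The intervals of *Csf1r* (−1.51 to −0.31) and *Clec4f* (−1.36 to −0.18) lie under 0, without adjustment for the number of genes, and those of the other 8 members include 0.

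The members varied together from liver to liver, also within genotypes. Over the 45 pairs of members, the median Pearson's r of log2 CPM across the 8 livers was 0.727, and 43 pairs were above 0. The median over all 95987440 pairs of tested genes was −0.002, with the central 90% from −0.825 to 0.854, and 11.4% of all pairs had an r at or above the members' median. After subtracting the genotype means the members' median was 0.752, and after removing the principal axis of all genes, which held 54.1% of the variance, it was 0.860. The median Spearman's rho was 0.571. By exact permutation tests over all 40320 orders of the livers, adjusted over the 45 pairs, 17 pairs had an adjusted *P* of at most 0.05 for r and 11 for rho. The lowest r among the 17 was 0.843, and the 95th percentile of r over all pairs of tested genes was 0.854. The rule was not applied to all pairs of genes, so these counts do not measure how unusual the members are. With the 2 livers farthest from the median of the first gene of each pair left out, the median r was 0.625 and 37 pairs were above 0, and the 17 pairs ranged from 0.375 to 0.907. Of these 17, 5 were then under 0.7, so part of the covariation rested on the livers with extreme values.

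The 3 pairs with the highest r were among the C1q chains and *Cd5l*. For *C1qb* and *C1qc*, r was 0.988 (exact permutation *P* = 0.000174, adjusted 0.00391) and rho was 0.929 (exact permutation *P* = 0.00223, adjusted 0.0251), with r = 0.907 when the 2 farthest livers were left out. For *Cd5l* and *C1qc*, which are on different chromosomes, r was 0.984 (exact permutation *P* = 0.000124, adjusted 0.00391) and rho was 0.976 (exact permutation *P* = 0.000397, adjusted 0.0179), with r = 0.885 without the 2 farthest livers. For *C1qa* and *C1qb*, r was 0.977 (exact permutation *P* = 0.000868, adjusted 0.0130) and rho was 0.857 (exact permutation *P* = 0.0107, adjusted 0.0438), with r = 0.830 without those livers. Other pairs of these 4 genes were looser. For *C1qa* and *C1qc*, r was 0.940 and fell to 0.573 without the 2 farthest livers. For *Cd5l* and *C1qa*, r was 0.913, under the 0.928 of *Vsig4* and *C1qa*, and it fell to 0.375. The exact permutation *P* of rho was not under the threshold after adjustment for these 2 pairs (0.220 and 0.185).

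The receptor genes *Adgre1*, *Marco* and *Timd4* formed 1 group and *Clec4f* and *Csf1r* another, set apart in part by L ΔRbfox2 replicate 4. *Vsig4* was in neither, with r from 0.33 for *Marco* to 0.772 for *Clec4f* among these genes and no such pair past the adjusted threshold. Its pairs with *Cd5l*, *C1qa*, *C1qb* and *C1qc* all passed, with r from 0.895 to 0.928. *Clec4f* was not tied to *Csf1r* alone. Its r was 0.889 with *C1qc*, 0.849 with *Cd5l* and 0.843 with *C1qb* (adjusted exact permutation *P* of 0.0191, 0.0273 and 0.0303). *Adgre1* and *Timd4* had an r of 0.891 (exact permutation *P* = 0.00494, adjusted 0.0191), which fell to 0.644 without the 2 farthest livers. Their rho of 0.810 did not pass (exact permutation *P* = 0.0218, adjusted 0.0817). *Adgre1* and *Marco* had an r of 0.877 (exact permutation *P* = 0.00382, adjusted 0.0191) and a rho of 0.905 (exact permutation *P* = 0.00456, adjusted 0.0342), with r = 0.778 without the 2 farthest livers. *Marco* and *Timd4* had an r of 0.874 (exact permutation *P* = 0.00593, adjusted 0.0191) and a rho of 0.857 (exact permutation *P* = 0.0107, adjusted 0.0438), with r = 0.762 without the 2 farthest livers. *Clec4f* and *Csf1r* had an r of 0.863 (exact permutation *P* = 0.00531, adjusted 0.0191) and a rho of 0.929 (exact permutation *P* = 0.00223, adjusted 0.0251), with r = 0.873 without the 2 farthest livers. Across these groups none of the 6 pairs passed the adjusted threshold, and r ran from −0.061 for *Marco* and *Csf1r* to 0.36 for *Adgre1* and *Clec4f*. For *Marco* and *Csf1r* the exact permutation *P* of r was 0.896 (adjusted 0.916) and rho was 0.048 (exact permutation *P* = 0.935, adjusted 0.956), and r was 0.58 without the 2 farthest livers. For *Clec4f* and *Marco* r was −0.00040 with all livers and 0.915 without L ΔRbfox2 replicate 4. Without that liver r was also 0.899 for *Clec4f* and *Adgre1* and 0.820 for *Clec4f* and *Timd4*, so the distance of *Clec4f* from that group rested on 1 liver. Leaving out that liver moved the median over all 45 pairs to 0.914 and the median r of *Marco* with the other 9 members from 0.435 to 0.915. *Csf1r* was the member least tied to the rest in the remaining 7 livers, with a median r of 0.622 against 0.884 to 0.945 for the other 9 members. It was also the member with the most negative correlation with the principal axis of all genes (r = −0.60 across the 8 livers, with no test). With that axis removed from the 8 livers, its r was 0.966 with *C1qa*, 0.966 with *C1qb*, 0.954 with *C1qc*, 0.917 with *Clec4f* and 0.905 with *Cd5l*, and 0.345 with *Marco*.

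**Figure D3:**
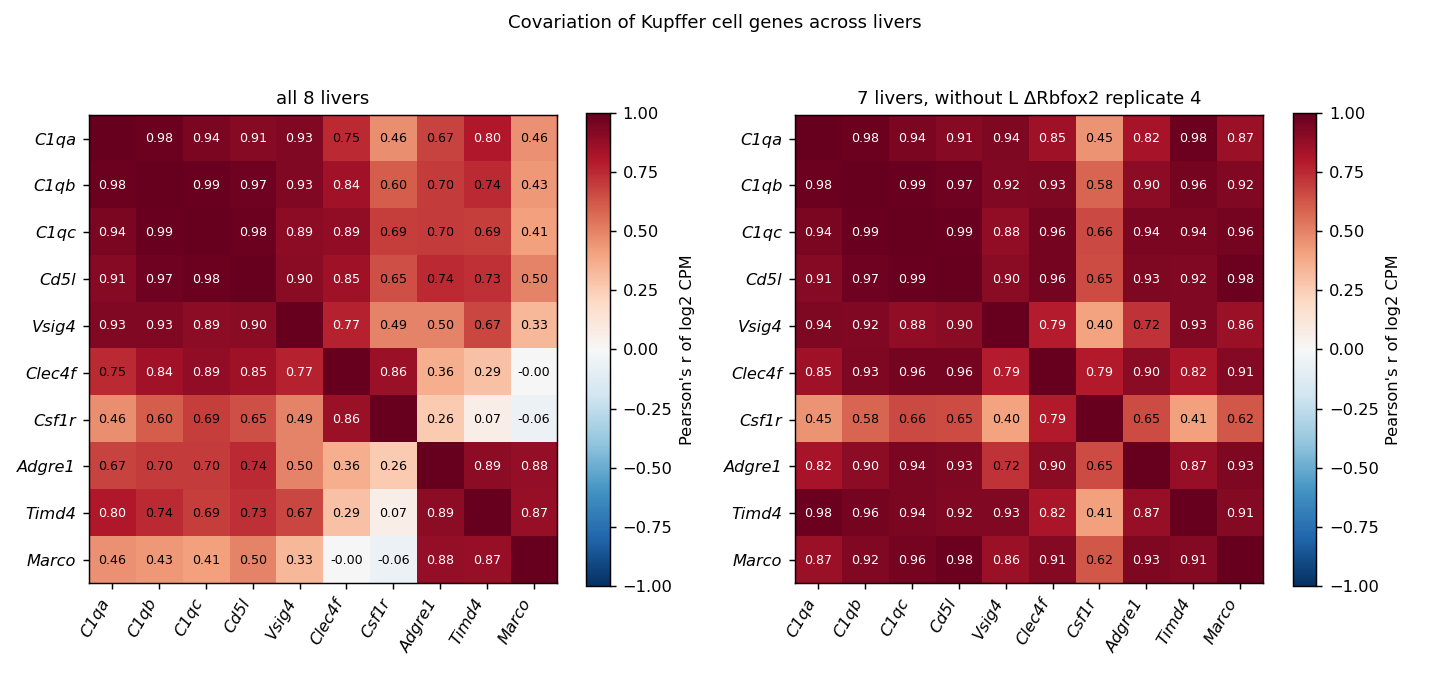
Pearson's r of TMM-normalized log2 CPM for each pair of Kupffer cell genes across all 8 livers (left) and across the 7 livers without L ΔRbfox2 replicate 4 (right), with colour and printed number giving r from −1 to 1 and both axes listing the 10 genes. The pale *Marco* row on the left, with r from −0.06 for *Csf1r* to 0.88 for *Adgre1*, is dark on the right except towards *Csf1r* (0.62), and the median over 45 pairs goes from 0.727 to 0.914.

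L ΔRbfox2 replicate 4 therefore differed in the makeup of the members and not in their sum. The 10 genes added up to 83.3 CPM in this liver, within the range of 54.1 to 110.1 CPM of its genotype, and to 95.6 to 167.8 CPM in L WT livers. *Marco* made up 13.5% of the members' summed CPM per kb in this liver and 2.01% to 3.52% in the other 7. *Timd4* made up 2.61% against 1.13% to 1.65%, and *Adgre1* 3.77% against 1.53% to 2.69%. In the other direction *Clec4f* made up 9.53% against 14.7% to 19.1%, while *Cd5l*, at 17.95% against 18.1% to 21.1%, and *C1qb*, at 17.2% against 17.3% to 19.6%, were close to the other livers. Among other genes this liver also had the highest value of the 8 for *Cd9* (20.3 CPM) and the β-globin gene *Hbb-bs* (646.6 CPM). *Lyz2*, a lysozyme of macrophages and granulocytes, was at 47.3 CPM, with 10.3 to 33.6 CPM elsewhere. *Plac8* and *Aif1* were also highest there. The macrophage genes *Cd163* and *Cd68* went the other way, with their lowest values of the 8 livers. Most other genes of the macrophage and monocyte lists described below were neither highest nor lowest in this liver. Of 6 neutrophil genes, it was narrowly the highest of the 8 livers for *S100a8*, at 0.248 CPM against 0.0156 to 0.241 CPM in the rest. The same held for *S100a9*, at 0.557 CPM against 0.0312 to 0.548 CPM, and both had at most 24 counts in a liver. The others did not peak there, but *Retnlg*, *Elane* and *Mpo* had at most 7, 4 and 5 counts in a liver, so their order among livers is uncertain. *Retnlg* was at 0.0929 CPM against 0.160 CPM in L ΔRbfox2 replicate 1, and *Elane* at 0.0929 CPM against 0.116 CPM in L ΔRbfox2 replicate 3. *Mpo* was at 0 CPM against 0.131 CPM in L WT replicate 1, and *Ly6g* had 0 counts in every liver. The part of these genes in the *Marco* value was not tested.

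A ratio to the mean of the 3 C1q chains, chosen after the values were seen, removes differences that all these genes share. *Cd5l* stayed at a nearly fixed ratio, with a log2 mean of 0.39 ± 0.18 in L WT and 0.34 ± 0.045 in L ΔRbfox2 livers (SD, n = 4 each; two-sided exact permutation *P* = 0.914). *Clec4f* was at 0.30 ± 0.17 and −0.078 ± 0.32, a difference of −0.38 (exact permutation *P* = 0.0857), and *Csf1r* at −2.20 ± 0.38 and −2.73 ± 0.53, a difference of −0.53 (exact permutation *P* = 0.114). *Timd4* was at −3.53 ± 0.064 in L WT and at −3.11 ± 0.53 in L ΔRbfox2 livers (exact permutation *P* = 0.143). *Marco* was at 0.987 times the C1q mean on the linear scale in L ΔRbfox2 replicate 4 and at 0.138 to 0.261 times in the other 7 livers. Over the 7 members compared in this way the adjusted exact permutation *P* was 0.333 or more, and the smallest unadjusted *P* that 4 against 4 livers allow is 0.0286.

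**Figure D4:**
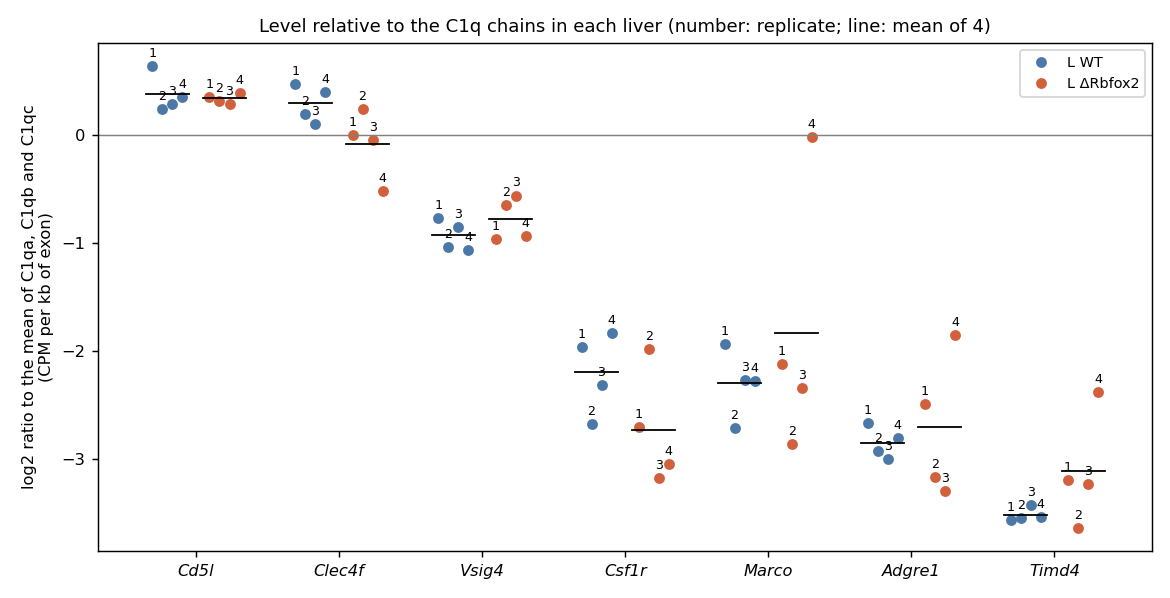
Log2 ratio of the CPM per kb of 7 Kupffer cell genes to the mean of *C1qa*, *C1qb* and *C1qc* in each liver, with points numbered by replicate for L WT (blue) and L ΔRbfox2 (orange) and a line at the mean of 4 livers. *Cd5l* stays between 0.24 and 0.65 in all 8 livers, while *Marco* in L ΔRbfox2 replicate 4, at −0.018, stands above −1.94 and lower in the other 7.

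Among the C1q chains themselves, the *C1qa* to *C1qb* ratio per kb was 0.902, 1.024, 1.018 and 1.019 in L WT replicates 1 to 4 and 1.038, 1.068, 1.145 and 1.102 in L ΔRbfox2 replicates 1 to 4. All 4 L ΔRbfox2 livers were above all L WT livers, and the difference in the log2 mean was 0.14 (two-sided exact permutation *P* = 0.0286, the smallest the design allows; adjusted over the 3 chain pairs 0.0857). The *C1qa* to *C1qc* ratio differed by 0.22 (exact permutation *P* = 0.0857, adjusted 0.129) and the *C1qb* to *C1qc* ratio by 0.083 (exact permutation *P* = 0.171, adjusted 0.171). None of the 3 passed after adjustment. With differences taken within replicate numbers (the replicate block), the *C1qa* to *C1qb* difference was 0.14 with an exact permutation *P* of 0.125, the smallest that 4 pairs allow.

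Other macrophage genes gave a mixed picture in which 0 genes passed the adjusted threshold. Of 24 further macrophage genes, all tested, 18 had a negative log2 fold change, against 51.6% of all genes tested. The median was −0.21, and 2 were lower and 0 higher at an unadjusted edgeR *P* under 0.05 (background 1.83% and 7.95%). The 2 lower genes were *Cd163*, the haemoglobin scavenger receptor, and *Cd68*, a lysosomal glycoprotein. *Cd163* was at 5.04, 3.01, 7.75 and 6.01 CPM in L WT and at 2.83, 2.50, 2.04 and 2.01 CPM in L ΔRbfox2 livers (log2 fold change −1.21, unadjusted *P* = 0.00182, adjusted *P* = 0.504 in the edgeR test), with no overlap (background 1.23% of genes towards lower values). *Cd68* had a log2 fold change of −0.77, and the 2 most abundant genes of the list per kb, *Lyz2* and the lysosomal protease gene *Lgmn*, had 0.65 and 0.094. The summed level of the 24 genes overlapped, at 178.3 to 284.4 CPM in L WT and 130.4 to 285.0 CPM in L ΔRbfox2 livers. Of 8 transcription factor genes used by macrophages, 0 had an unadjusted edgeR *P* under 0.05 and the median was −0.35. *Spi1*, which encodes PU.1, had −0.68, and *Nr1h3* and *Id3*, the most abundant of the list per kb, had 0.33 and −0.48, but these 2 are also expressed by other liver cells.

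Signals and pathways that act on or through Kupffer cells were as follows. Of the 13 genes of niche signals (CSF1, IL-34, TGF-β, Notch and BMP ligands and receptors), 12 could be tested, 0 had an unadjusted *P* under 0.05 and the median was −0.16. *Csf1* and *Il34*, the ligands of CSF1R, had log2 fold changes of −0.21 and −0.26, and the most abundant, *Eng* and *Tgfbr1*, −0.28 and 0.019. Of 9 classical complement genes downstream of C1q, which hepatocytes largely make, 1 was lower at that threshold, *C4b* (log2 fold change −0.69, unadjusted *P* = 0.0441 in the edgeR test), with a list median of −0.11, and the most abundant, *C3* and *Serping1*, had −0.21 and −0.060. Of 7 genes for the uptake of dying cells, the receptor tyrosine kinase genes *Axl* (−0.68, unadjusted *P* = 0.0159) and *Mertk* (−0.45, unadjusted *P* = 0.0448 in the edgeR test) were lower, while *Cd36* and *Lrp1* had −0.088 and −0.85. The list median was −0.088. *Axl* was at 4.94 to 8.44 CPM in L WT and 2.85 to 4.61 CPM in L ΔRbfox2 livers, a separation that 1.23% of all genes tested showed towards lower values. The adjusted *P* of each named gene was 0.504 or more in this test, and 1.83% of all genes tested were lower at an unadjusted *P* under 0.05.

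Markers of other cells were at different levels and moved differently. Of 16 monocyte and inflammation genes 7 could be tested. *Itgam* (−1.13) and *Il1b* (−1.14) were lower and *Cd9* (0.70) higher at an unadjusted edgeR *P* under 0.05, with at most 27 counts of *Itgam* and 42 of *Il1b* in a liver, and *Plac8* had 0.56. The median of the list was −0.115, and the background was 1.83% of genes lower and 7.95% higher. *Trem2*, a gene of lipid-associated macrophages, was at 0.138 to 0.407 CPM in the 8 livers. The 10 lymphocyte genes were too low to be tested and summed to 0.53 to 3.38 CPM per liver, and of 6 neutrophil genes 1 (*S100a9*) was tested. Of 10 genes of sinusoidal endothelium, the neighbours of Kupffer cells, 8 had a negative log2 fold change, against 51.6% of all genes tested. The median was −0.24 and 0 had an unadjusted *P* under 0.05. *Clec4g* and *Fcgr2b*, the most abundant per kb, had −0.043 and −0.19. Their summed level was 123.2 to 165.5 CPM in L WT and 94.9 to 140.5 CPM in L ΔRbfox2 livers, and it did not follow the Kupffer cell genes from liver to liver. L ΔRbfox2 replicate 2, with the lowest Kupffer cell sum (54.1 CPM), had the highest endothelial sum of its genotype (140.5 CPM). L WT replicate 3, with the highest Kupffer cell sum (167.8 CPM), had an endothelial sum of 132.8 CPM. The 9 stellate cell genes had a median of −0.026 (*Ecm1* −0.16, *Dcn* 0.33), the 4 tested cholangiocyte genes 0.53 (*Spp1* 0.83, *Sox9* 0.075) and the 8 hepatocyte genes 0.14 (*Alb* 0.25, *Apoa1* 0.36), with 0 at an unadjusted *P* under 0.05 in each.

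The 4 globin genes, markers of erythroid cells and blood, were all higher at an unadjusted edgeR *P* under 0.05 (background 7.95% of genes). Their log2 fold changes were 1.38 for *Hbb-bs*, 1.27 for *Hbb-bt*, 0.69 for *Hba-a2* and 0.68 for *Hba-a1*, with an adjusted *P* of 0.504 each. Their summed level was 337.9 to 681.1 CPM in L WT and 588.8 to 1479 CPM in L ΔRbfox2 livers. L ΔRbfox2 replicate 4 was the highest liver for *Hbb-bs* and *Hbb-bt*. L ΔRbfox2 replicate 3 was the highest for *Hba-a1* (298.6 CPM, against 239.0 CPM in replicate 4) and *Hba-a2* (286.0 against 227.7 CPM). Among the members, replicate 4 was the lowest liver for *Clec4f* and *Csf1r* and the highest for *Marco* and *Adgre1*. The part of blood content in the results for the members was not tested. Near-identical globin genes can share reads.

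The 10 genes closest to the members were ranked by Pearson's r with the mean standardised log2 CPM of the 10 members across 8 livers, among 13846 other genes and with no test. They were *Plek* (0.968), *Cybb* (0.939), *Cd300ld* (0.928), *Ppm1b* (0.922), *Pla2g7* (0.919), *Ctss* (0.902), *Pilra* (0.899), *Cfp* (0.892), *Folr2* (0.892) and *Treml4* (0.891). Of these, *Cybb*, *Ctss*, *Cfp* and *Folr2* are in the list of 24 macrophage genes above. *Plek*, a pleckstrin gene of blood cell lineages, was at 0.924 to 1.64 CPM in L WT and 0.593 to 1.21 CPM in L ΔRbfox2 livers, with its highest value in L WT replicate 3 and its lowest in L ΔRbfox2 replicate 2, as for 8 and 8 of the members. The mean standardised level of the members in these livers was 1.44 and −1.60, and between −0.22 and 0.42 in the other 6.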

How the data were processed

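RNA-seq of 8 livers, 4 per genotype, was used, with genotype, diet and replicate number from the labels. The authors selected poly(A) RNA, sequenced it in paired reads, aligned these with TopHat2 2.0.11 to GRCm38 (mm10), and used featureCounts for reads per gene. They deposited raw counts, as whole numbers without normalization. The submitters' processing notes also name CASAVA 1.8.4. The strand and multi-mapping settings of the counting are not given in the sources used here. All 8 columns were matched to livers by name, and a chi-square comparison of libraries within genotypes gave at least 97.8 per degree of freedom, so none was a copy.

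GENCODE M21 gave symbols for 45229 of 46078 identifiers, with positions and exon lengths. The fit used edgeR 4.0.16 in R 4.3.3, with filterByExpr (minimum count 10, minimum total 15), TMM factors, glmQLFit and glmQLFTest with genotype as the only term, and Benjamini–Hochberg adjustment over 13856 genes at 0.05. Intervals came from limma-voom (limma 3.58.1). Log2 CPM used a prior count of 2, and ratios and levels between genes used CPM per kb of exon. Total counts were 37482458 to 56177588 per liver. A floor of 3 counts corresponds to 0.053 to 0.080 CPM when scaled by total counts without the TMM factors, and covers counting error only. In TMM-normalized CPM the floor is higher than by total counts in L ΔRbfox2 replicates 3 and 4, with factors of 0.724 and 0.776. It is lower in the other livers, whose factors were above 1. The methods give random assignment of mice to groups and male sex unless noted otherwise, without detail on these animals. *P* values measure the spread between these livers.

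The members, the other gene lists, the tests and the motifs were chosen with earlier results of these data known. Genes named are the 10 members, *Rbfox2*, from each list the genes with an unadjusted *P* under 0.05 (at most 4) and the 2 most abundant per kb, and the 10 genes closest to the members. *Spi1*, *Csf1*, *Il34*, *Trem2*, *Aif1*, *S100a8*, *Retnlg*, *Elane*, *Mpo*, *Ly6g* and *Hmgxb3* were named for their roles, level or position after their values were seen. Alternatives were DESeq2 1.42.0 and upper-quartile size factors, DESeq2 and limma-voom tests, other filters, robust estimation, the replicate block, a lowess correction (span 0.3) for GC content and gene length, 1 surrogate variable from svaseq (sva 3.50.0) and leaving out each liver. Permutation tests were exact and two-sided. Python 3.11.15 with scipy 1.17.1, numpy 2.4.6 and pandas 2.3.3 made the tables, and matplotlib 3.10.9 the figures. Single results for some genes of the lists are not reported here.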

Additional observations from a re-analysis of the deposited data

Results flagged for a closer look

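Among 40 groups of 4 livers examined (the CPM of each member and the log2 ratios between genes, by genotype), 4 had a liver whose distance from the others was above Dixon's 95% critical value, where chance gives about 2. *Timd4* was at 2.81 CPM in L WT replicate 3 while L WT replicates 1, 2 and 4 were at 1.36 to 1.55 CPM. *C1qc* was at 16.7 CPM in the same liver and at 9.003 to 9.82 CPM in the others. The *C1qa* to *C1qb* log2 ratio was −0.149 in L WT replicate 1 and 0.025 to 0.035 in L WT replicates 2 to 4. The *C1qb* to *C1qc* log2 ratio was 0.967 in L ΔRbfox2 replicate 1 and 1.11 to 1.13 in the other L ΔRbfox2 livers. *Marco* in L ΔRbfox2 replicate 4 did not exceed the critical value.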

How the results depend on the processing

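In every fit 0 members passed the adjusted threshold. Over all genes, 0 passed with edgeR and limma-voom under each alternative and with each liver left out, and 10 passed with DESeq2. The higher and lower counts of all genes at the unadjusted threshold were 1102 and 254, and they became 829 and 338 with upper-quartile factors, 695 and 368 with the GC content and gene length correction, and 179 and 203 with the replicate block and that correction. Livers of the same number did not deviate together (correlations of their deviations of 0.13, −0.61, 0.12 and −0.51, with 0 of 4 L WT livers closest to their own number). With the replicate block, 335 genes were under the unadjusted threshold in place of 1356, the members' median was −0.35, and the *C1qa* to *C1qb* difference of 0.14 had an exact permutation *P* of 0.125, the smallest that 4 pairs can give.

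Of 110 values of single members under alternatives that kept all livers, 103 kept their direction. The other 7 were *Timd4* at −0.26 (GC content and gene length correction), −0.27 (with the block added), −0.53 (surrogate variable) and −0.057 (limma-voom), and *Marco* at −0.12 (correction and block), −0.58 (surrogate variable) and −0.028 (limma-voom). The cause was not tested. With a liver left out, 71 of 80 kept their direction, and *Adgre1* ran from −0.35 to 0.17, *Vsig4* from −0.49 to 0.053, *Marco* from −0.39 to 0.82, *Timd4* from −0.13 to 0.39 and *C1qa* from −0.44 to 0.0021. In the same fits the members' median ran from −0.51 to −0.072, the median correlation from 0.58 to 0.914, and the chain ratios from 0.092 to 0.16 (*C1qa* to *C1qb*, exact permutation *P* from 0.0286 to 0.0571), 0.15 to 0.28 (*C1qa* to *C1qc*) and 0.062 to 0.12 (*C1qb* to *C1qc*).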
